A study of Mus musculus with 16 samples.

Results

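The genes described here were 10 precursors of neuropeptides, *Npvf*, *Nppc*, *Npy*, *Sst*, *Vip*, *Penk*, *Tac1*, *Cck*, *Pdyn* and *Crh*, out of 55365 gene lines that the tables of both days share. They were taken by symbol, and all 10 were found in both tables. The set was chosen by the measured falls of *Npvf* and *Nppc*, which were among the largest after knockdown of the lncRNA *RUS*, so their values are given as a description without a test, in every comparison. No threshold was stated for the choice. The other 8 genes were tested, with p-values adjusted over all genes. The cells were neural stem cells (NSC) from cortices of C57BL/6 mouse embryos at E15-16, pooled over embryos of both sexes, and all cultures carried a lentivirus. The virus expressed either a scrambled shRNA (shRNA CON) or 1 shRNA against *RUS* (shRNA RUS). RNA was taken on day 5 after seeding, when the mitogen bFGF was withdrawn to start differentiation, or on day 7, so that 4 groups of 4 libraries, 16 in all, were made. The labels do not say whether the 4 libraries of a group came from separate cultures, so p-values measure the spread between these libraries, which may be partly technical.

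Expression was measured by sequencing of polyA RNA and is given as TPM, a unit of transcript abundance that corrects for length and is scaled to the same total in each library. How deeply each library was sequenced is unknown. Between 25615 and 29126 gene lines per library were above 0 TPM, and libraries of the same group correlated at 0.967 to 0.981 against 0.930 to 0.966 between the shRNA groups of a day. *Gm20754*, the gene of *RUS* (GRCm38, chromosome 3, 73066316 to 73594830, plus strand), was at 0.24, 0.11, 0.18 and 0.16 TPM in the shRNA CON libraries of day 5 and at 0.05, 0, 0.12 and 0.32 TPM in the shRNA RUS libraries. Its day 7 values were 0.7, 0.72, 0.26 and 0.54 TPM in shRNA CON and 0.54, 0.38, 0 and 0.04 TPM in shRNA RUS. The means in shRNA RUS were 71.0% and 43.2% of control, the libraries overlapped on both days, and neither difference passed an exact two-sided permutation test over the 70 arrangements (p = 0.543 and 0.143). The smallest p that 4 against 4 libraries allow is 0.0286. For *Gm20754* the authors' mean of normalized counts over the 8 libraries of a day was only 3.86 on day 5 and 8.57 on day 7. Differences of such a low signal are hard to detect here. The paper reports reduced *RUS* levels after knockdown by RT-qPCR.

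Neuropeptides are made as longer precursors, which are cleaved by prohormone convertases, trimmed and often amidated, stored in dense core granules and released onto G protein-coupled receptors of other cells. *Npvf* encodes the precursor of the RFamide-related peptides, which are best known from neurons of the hypothalamus. *Nppc* encodes C-type natriuretic peptide, which acts through a receptor that makes cGMP. *Npy*, *Sst*, *Vip*, *Cck*, *Tac1* and *Crh* encode neuropeptide Y, somatostatin, vasoactive intestinal peptide, cholecystokinin, the substance P precursor and corticotropin-releasing hormone, several of which mark classes of cortical interneurons. *Penk* and *Pdyn* encode the precursors of the enkephalins and dynorphins, which are opioid peptides.

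Several of these genes are textbook targets of cAMP signalling through the cAMP response element (CRE), TGACGTCA, so their promoters are shown. Windows of 250 bases before to 50 bases after the start were taken from RefSeq (GRCm38.p6) and were found for 8 of the 10 genes, all but *Penk* and *Crh*. They were searched for the full CRE, for its core TGACG, both on either strand, where CGTCA is the core on the other strand and the full element holds the core, and for TATAAA on the strand of the gene. Each line gives 30 bases around a match, 5′ to 3′ on the strand of the gene, with the match in capitals. The first 3 are those with TATAAA close to the start, at chr6:50654457-50654486 (minus), chr1:86670585-86670614 (minus) and chr10:5639176-5639205 (plus).
Npvf: tatctgtcacagTATAAAaccaccaagagt
Nppc: ggcaggttggatTATAAAggctccagcgga
Vip: aagcacaagcccTATAAAatgagagacttt
The next 4 hold the full CRE or its core, at chr16:23890874-23890903 (minus), chr10:5639127-5639156 (plus), chr9:121495724-121495753 (minus) and chr6:7555006-7555035 (plus).
Sst: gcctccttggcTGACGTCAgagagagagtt
Vip, core: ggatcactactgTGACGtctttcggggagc
Cck, core: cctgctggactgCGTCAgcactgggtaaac
Tac1, core: gctctacaggctCGTCAcgcctgagataaa
The first base of TATAAA lay at -29 from the start in *Npvf* and *Nppc* and at -30 in *Vip*. TATAAA with its first base between -35 and -25 was found in 3 of the 8 genes and in 1.75% of all 32841 windows. The full CRE was found in 1 of the 8 genes, *Sst*, with its first base at -48, and in 1.79% of all windows. The core was found in 4 of the 8 and in 20.8% of all windows. No CRE letters were found in the windows of *Npvf*, *Nppc*, *Npy* and *Pdyn*. These matches are descriptions of the sequence and no binding was measured.

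The genes lie on 8 chromosomes, and 3 of them on chromosome 6. *Npy* (chromosome 6, 49822710 to 49829507, plus strand) ends 821164 bp before *Npvf* (50650672 to 50654439, minus strand), and *Tac1* (7554879 to 7565834) lies far from both. *Nppc* lies on chromosome 1 at 86666291 to 86670571, minus strand. In the GENCODE vM21 annotation of GRCm38 only *Penk* (chromosome 4, 4133531 to 4138819, minus strand) overlaps another gene, *A830012C17Rik* on the opposite strand. The sources used here do not say whether reads were counted by strand, so reads of the overlap cannot be told apart.

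**Figure D1:**
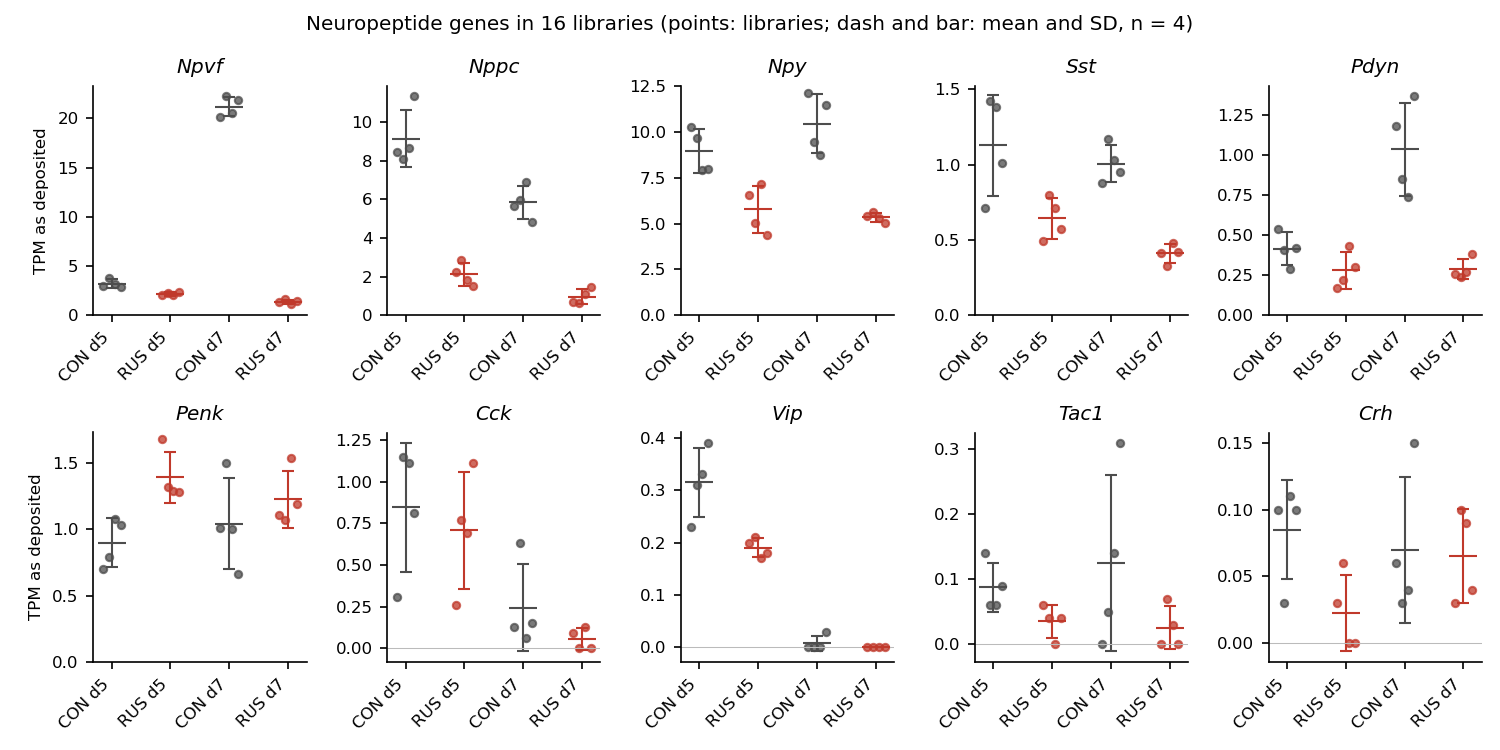
TPM as deposited (linear axes, one scale per gene) of the 10 genes in the libraries of shRNA CON and shRNA RUS on day 5 (d5) and day 7 (d7). Points are libraries, dashes and bars are mean and SD of 4 libraries. *Npvf* was above 20 TPM only in the 4 shRNA CON libraries of day 7, and *Nppc* was lower in all shRNA RUS libraries on both days.

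The plot of levels by library shows that 3 genes, *Npvf*, *Nppc* and *Npy*, were well above the others in control cultures. On the length-corrected scale after scaling of the libraries, *Nppc* (mean 9.41) and *Npy* (9.20) led on day 5 in shRNA CON and overlapped, *Npvf* followed at 3.31, and *Sst*, *Penk*, *Cck*, *Pdyn* and *Vip* lay between 1.17 and 0.33, each overlapping the next. On day 7 the order in shRNA CON was *Npvf* (19.6), *Npy* (9.69) and *Nppc* (5.40), none of them overlapping, and then *Penk*, *Pdyn* and *Sst*, which overlapped at 0.96 to 0.93. In shRNA RUS on day 7, *Npy* led at 4.90 and did not overlap with the next, while *Npvf* (1.25), *Penk* (1.12) and *Nppc* (0.88) overlapped. *Tac1* and *Crh* stayed under 0.12 in every group.

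*Npvf* was slightly lower in shRNA RUS on day 5 and far lower on day 7. On day 5 it was at 2.95, 3.82, 3.2 and 2.86 TPM in shRNA CON and at 2.01, 2.24, 2.03 and 2.41 TPM in shRNA RUS. On day 7 it was at 20.18, 22.24, 20.57 and 21.86 TPM in shRNA CON and at 1.33, 1.63, 1.1 and 1.41 TPM in shRNA RUS. The groups did not overlap on either day, and the high level belonged to the control libraries of day 7. The mean over the libraries was 3.21 ± 0.43 TPM (SD, n = 4) on day 5 and 21.2 ± 0.99 TPM on day 7 in shRNA CON, and 2.17 ± 0.19 and 1.37 ± 0.22 TPM in shRNA RUS. After scaling, *Npvf* in shRNA RUS was at 75.3% of control on day 5 and at 6.44% on day 7. The fitted log2 difference was -0.38 (SE 0.12) on day 5, or -0.22 with quantile normalization, and -3.87 (SE 0.11) on day 7. Between the days it was 2.55 (SE 0.12) in shRNA CON and -0.95 (SE 0.12) in shRNA RUS, so the course had the opposite sign. Ordered by log2 difference from the lowest, *Npvf* was at place 2910 of the 15286 genes that averaged 1 TPM or more on day 5 and at place 5 of 16333 on day 7. The authors' mean of normalized counts over the 8 libraries of a day was 54.0 on day 5 and 199 on day 7.

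*Nppc* was lower in shRNA RUS on both days. On day 5 it was at 8.46, 8.1, 8.66 and 11.33 TPM in shRNA CON and at 2.25, 2.87, 1.8 and 1.52 TPM in shRNA RUS. On day 7 it was at 5.64, 5.98, 6.92 and 4.84 TPM in shRNA CON and at 0.7, 0.62, 1.08 and 1.46 TPM in shRNA RUS. Every shRNA RUS library was below every shRNA CON library, also across the days. The means in shRNA CON were 9.14 ± 1.48 TPM (SD, n = 4) on day 5 and 5.85 ± 0.86 TPM on day 7, and those in shRNA RUS 2.11 ± 0.59 and 0.97 ± 0.39 TPM. This is 25.9% of control on day 5 and 16.5% on day 7. The fitted log2 difference was -1.93 (SE 0.21) on day 5 and -2.54 (SE 0.24) on day 7, place 31 and place 42 from the lowest. *Nppc* also had lower values on day 7 than on day 5 in both cultures, by a log2 difference of -0.78 (SE 0.24) in shRNA CON and -1.39 (SE 0.24) in shRNA RUS, or -0.86 there with 1 added before the log2. In such bulk libraries, fewer cells that express a gene and less RNA per cell cannot be told apart.

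*Npy*, *Sst* and *Pdyn* fell in shRNA RUS on day 7. *Npy* was at 12.13, 9.47, 8.74 and 11.46 TPM in shRNA CON and at 5.42, 5.63, 5.32 and 5.04 TPM in shRNA RUS on day 7, with no overlap, and its mean was 51.1% of control. The log2 difference was -0.94 (SE 0.11) with a limma adjusted p of 8.5e-05. On day 5 *Npy* was at 10.3, 9.67, 7.91 and 7.97 TPM against 6.56, 5.01, 7.15 and 4.39 TPM, so all shRNA RUS libraries were lower as deposited, but after scaling the groups overlapped. The day 5 difference, -0.49 (SE 0.17), missed the limma threshold (adjusted p = 0.0593), and passed it in 4 alternatives, without library 3 of shRNA RUS (adjusted p = 0.0329), with a filter at 1 TPM (0.0418), with scaling by the 75th percentile (0.0290) and with TPM as deposited (0.0143).

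*Sst* was at 0.88, 1.17, 1.03 and 0.95 TPM in shRNA CON and at 0.41, 0.33, 0.48 and 0.42 TPM in shRNA RUS on day 7. The groups did not overlap, the mean was 40.6% of control, and the log2 difference was -1.12 (SE 0.17, limma adjusted p = 0.00045). On day 5 *Sst* was at 0.71, 1.42, 1.38 and 1.01 TPM against 0.49, 0.8, 0.71 and 0.57 TPM, where the lowest control library lay within the range of shRNA RUS. The day 5 difference was -0.56 (SE 0.26, limma adjusted p = 0.123), and passed the threshold without library 1 of shRNA CON (-0.77, adjusted p = 0.0334) and with TPM as deposited (-0.70, adjusted p = 0.0495).

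*Pdyn* was at 1.18, 0.85, 0.74 and 1.37 TPM in shRNA CON and at 0.26, 0.24, 0.27 and 0.38 TPM in shRNA RUS on day 7. Again the groups did not overlap, with a mean at 27.7% of control and a log2 difference of -1.53 (SE 0.23, adjusted p = 0.00046 by limma). On day 5 it was at 0.54, 0.41, 0.29 and 0.42 TPM against 0.17, 0.22, 0.43 and 0.3 TPM, and these overlapped (log2 difference -0.34, SE 0.27, limma adjusted p = 0.366). *Pdyn* rose from day 5 to day 7 in shRNA CON (log2 difference 0.99, SE 0.25, limma adjusted p = 0.0032) and not detectably in shRNA RUS (-0.17, SE 0.25, adjusted p = 0.564). The knockdown effect of day 7 minus that of day 5, -1.17 (SE 0.35), passed the limma test (adjusted p = 0.0191). It missed the threshold with the replicate number as a block (limma adjusted p = 0.0564). Adding 1 in place of 0.1 before the log2, which shrinks the differences of low genes, gave -0.65 for *Pdyn* and -0.51 for *Sst* on day 7, and both kept their call.

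*Penk* was the only member called higher in shRNA RUS on either day, and only on day 5. On day 5 it was at 0.7, 0.79, 1.08 and 1.03 TPM in shRNA CON and at 1.68, 1.32, 1.29 and 1.28 TPM in shRNA RUS, with no overlap and a mean at 173% of control. By limma the log2 difference was 0.73 (SE 0.19, adjusted p = 0.0148). The call was lost with the replicate number as a block (limma adjusted p = 0.0638). The libraries of day 7 had 1.01, 1.5, 1 and 0.66 TPM against 1.11, 1.07, 1.54 and 1.19 TPM, which overlapped widely (log2 difference 0.25, SE 0.23, adjusted p = 0.398). The difference between these effects was not called (-0.50, SE 0.29, limma adjusted p = 0.224), so the days were not shown to differ.

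*Cck*, *Vip*, *Tac1* and *Crh* were near the lower end of what these libraries resolve, and 3 of the 4 were not tested on day 7 because their mean was under 0.1 TPM. *Cck* was at 0.31, 1.15, 1.11 and 0.81 TPM in shRNA CON and at 0.26, 0.77, 0.69 and 1.11 TPM in shRNA RUS on day 5, where 1 library of each group stood low. On day 7 it was at 0.13, 0.63, 0.06 and 0.15 TPM against 0.09, 0, 0.13 and 0 TPM. Neither knockdown difference was called (-0.10, SE 0.45, limma adjusted p = 0.893, and -0.99, SE 0.52, adjusted p = 0.154), but *Cck* fell from day 5 to day 7 in shRNA CON (-1.70, SE 0.50, limma adjusted p = 0.0101) and in shRNA RUS (-2.55, SE 0.50, adjusted p = 0.00034). The size of these falls depended on the value added before the log2, with a range from -2.24 to -0.61 in shRNA CON and from -4.46 to -0.75 in shRNA RUS over the alternatives.

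*Vip* was at 0.23, 0.31, 0.33 and 0.39 TPM in shRNA CON and at 0.2, 0.21, 0.17 and 0.18 TPM in shRNA RUS on day 5 (log2 difference -0.39, SE 0.23, limma adjusted p = 0.226). On day 7 it was listed at 0 in 7 of the 8 libraries and at 0.03 TPM in the other one, of shRNA CON. In the fit of 16 libraries *Vip* (mean 0.128 TPM) passed the filter only through its day 5 values. Its lower values on day 7 are therefore given as a description. No fold is given against values listed at 0. *Tac1* ranged from 0 to 0.31 TPM and *Crh* from 0 to 0.15 TPM over the 16 libraries, with overlap on both days. The authors' mean of normalized counts was 1.56 to 1.87 for these genes and days, so a difference of either was not detectable here.

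**Figure D2:**
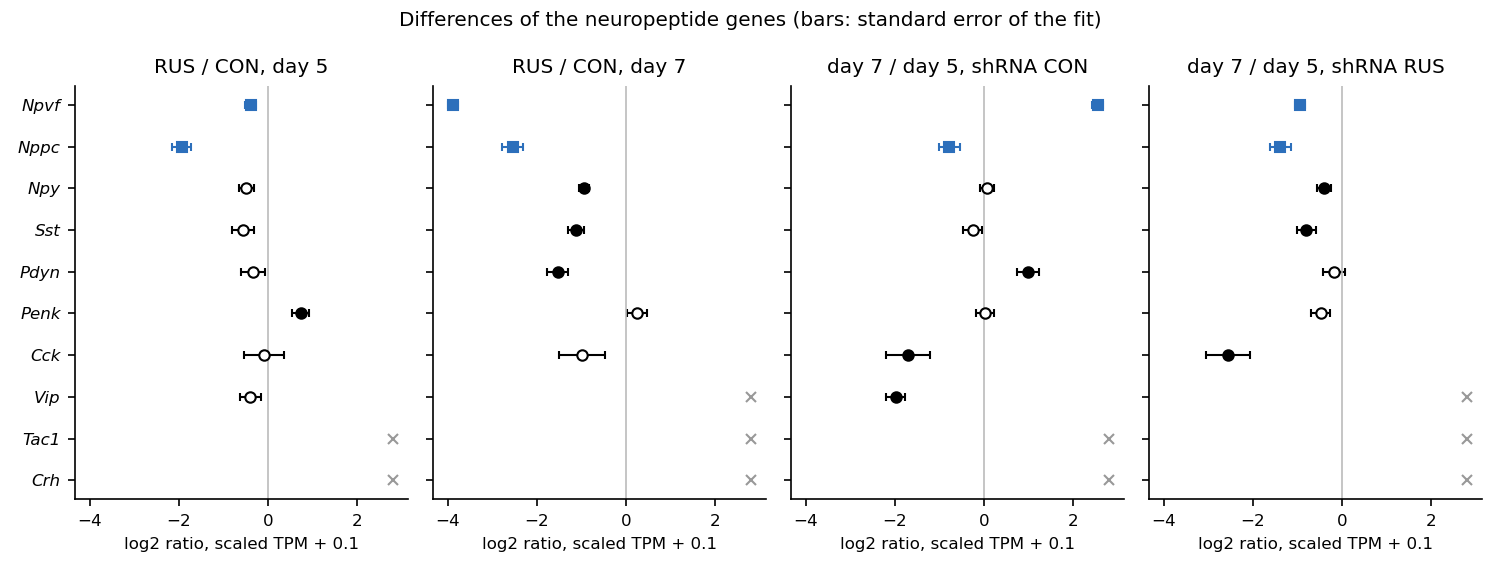
Log2 ratios of scaled TPM + 0.1 for the 10 genes in 4 comparisons, with the standard error of the fit as bars. Blue squares are *Npvf* and *Nppc*, given without a test, filled circles passed limma's adjusted p of 0.05, open circles did not, and crosses at the right edge mark genes under the filter and *Vip*, listed at 0 on day 7 in shRNA RUS. On day 7 the 3 called genes, *Npy*, *Sst* and *Pdyn*, lie below 0. Between the days in shRNA CON, *Vip* passed the filter only through its day 5 values.

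Counted over the 8 tested genes, 6 had enough signal on day 5, of which 1 was called higher and 0 lower, beside 14.8% of all genes called higher and 17.9% called lower. At an unadjusted limma p under 0.05, *Npy* would have been lower as well. On day 7, 5 passed the filter, of which 3 were called lower and 0 higher, beside 25.8% of all genes lower and 23.4% higher. Over all 10 genes, the shRNA RUS libraries lay below all shRNA CON libraries in 2 genes on day 5 and in 5 on day 7, beside 18.7% and 24.7% of all tested genes; *Npvf* and *Nppc* are in both counts through the choice. The median log2 difference of the tested genes was -0.37 on day 5 and -0.99 on day 7, beside -0.06 and -0.03 over all genes. Between the days, 1 of 6 rose and 2 fell in shRNA CON (26.9% and 21.6% of all genes), and 0 rose and 4 fell in shRNA RUS (35% and 25.8%). *Vip* is in both counts of falls and passed the filter only through its day 5 values. These counts of falls are therefore not read against the shares of all genes. The falls in shRNA RUS were those of *Vip*, *Cck*, *Sst* (-0.80, SE 0.21, limma adjusted p = 0.0041) and *Npy* (-0.40, SE 0.16, adjusted p = 0.036). The call of *Npy* was lost without library 1 or 3 of day 5 or library 1, 3 or 4 of day 7 in shRNA RUS (adjusted p between 0.055 and 0.125), without the filter (0.0570), with scaling by the 75th percentile (0.111) and with TPM as deposited (0.642). *Penk* missed the threshold in shRNA RUS (-0.48, SE 0.21, limma adjusted p = 0.0602) and passed it in 5 of 25 alternatives, with 1 added before the log2 (adjusted p = 0.0395), with quantile normalization (-0.78, adjusted p = 0.0049), and without library 2 or 4 of shRNA CON (0.0366 and 0.0353) or library 3 of shRNA RUS (0.0376), all of day 7. A change of the knockdown effect from day 5 to day 7 was called for 1 of 6, *Pdyn*, beside 29.8% of all genes in either direction. That of *Npy* was -0.47 (SE 0.22, limma adjusted p = 0.126), or -0.62 (adjusted p = 0.0193) without library 4 of shRNA RUS on day 5. All comparisons between days set the tables of day 5 and day 7 side by side, and a difference of handling between them and the day cannot be told apart.

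The courses of *Npvf* and *Nppc* were compared with those of all 15898 genes that averaged 1 TPM or more, by Pearson's r of log2(scaled TPM + 0.1) over the 16 libraries. Among the genes most like *Npvf* were *Rnf32* (r = 0.983) and *Ropn1l* (0.969), of which *Ropn1l* encodes a protein of motile cilia and sperm tails. Most like *Nppc* were *Nme1* (0.980), a nucleoside diphosphate kinase, *Ube2c* (0.979), a ubiquitin-conjugating enzyme of mitosis, and *Ftl1* (0.972), the ferritin light chain. The libraries fall into 4 groups, so these values mostly follow the group means: within groups r was 0.31 and 0.07 for *Rnf32* and *Ropn1l*, and 0.81, 0.70 and 0.55 for those most like *Nppc*.

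**Figure D3:**
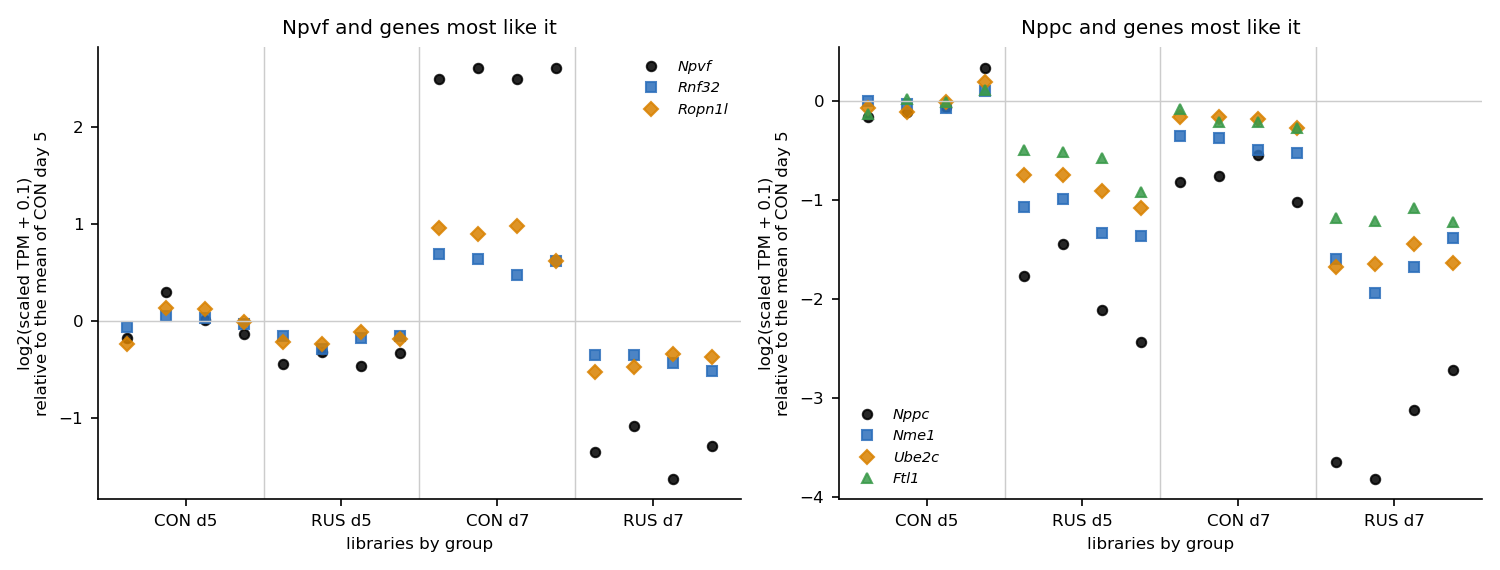
Log2 levels of *Npvf* (left) and *Nppc* (right) and of genes most like each (2 and 3 genes), relative to the mean of shRNA CON on day 5, in the 16 libraries ordered by group. *Rnf32* and *Ropn1l* rise and fall with *Npvf* over a smaller range, and *Nme1*, *Ube2c* and *Ftl1* follow *Nppc* in the same way.

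The plot of these courses shows the same order of the groups with smaller steps. *Ropn1l* differed by -0.18 (limma adjusted p = 0.155) on day 5 and by -1.27 (adjusted p = 2.9e-06) on day 7. *Nme1* differed by -1.19 (adjusted p = 3.5e-05) and -1.20 (adjusted p = 1.1e-05) and *Ube2c* by -0.87 and -1.39. Most like *Npy* were *Fam118b* (0.927), *Nmral1* (0.926) and the histone gene *H2az1* (0.918), and among those most like *Penk* were *Bad* (0.834) and *Ogfr* (0.826). These genes were picked for their likeness to members, so their own tests are no independent support.

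Receptors for the peptides were expressed at very different levels, and *Npr2* and *Adcyap1r1* were the most abundant. The VIP receptors *Vipr1* and *Vipr2* were far lower, at scaled means of 0.06 and 2.95 TPM in shRNA CON on day 5. *Npr2*, the guanylyl cyclase that C-type natriuretic peptide activates, was at 39.06 to 46.25 TPM in shRNA CON and 26.7 to 40.25 TPM in shRNA RUS on day 5. Its day 7 range was 28.91 to 30.94 TPM and 28.95 to 36.75 TPM. Neither difference of *Npr2* was called (-0.21, limma adjusted p = 0.114, and 0.14, adjusted p = 0.154). *Npr3*, the clearance receptor that takes up natriuretic peptides, was at 1.92, 2, 2.25 and 2.18 TPM in shRNA CON and at 0.64, 0.48, 0.56 and 0.61 TPM in shRNA RUS on day 7. It fell to 27.4% of control there (-1.71, SE 0.14, limma adjusted p = 7e-06), against 90.0% on day 5 (-0.13, SE 0.14, adjusted p = 0.512), and the effects differed between the days (-1.57, SE 0.19, adjusted p = 2.7e-05). *Npffr1*, the receptor for the *Npvf* peptides, was at 0.28 to 0.89 TPM on day 5 and 0.13 to 0.23 TPM on day 7. Its knockdown difference was not called on either day (limma adjusted p = 0.138 and 0.951), while it fell between the days in shRNA CON (-1.08, SE 0.23, adjusted p = 0.0010) and in shRNA RUS (-1.62, SE 0.23, adjusted p = 1.5e-05).

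**Figure D4:**
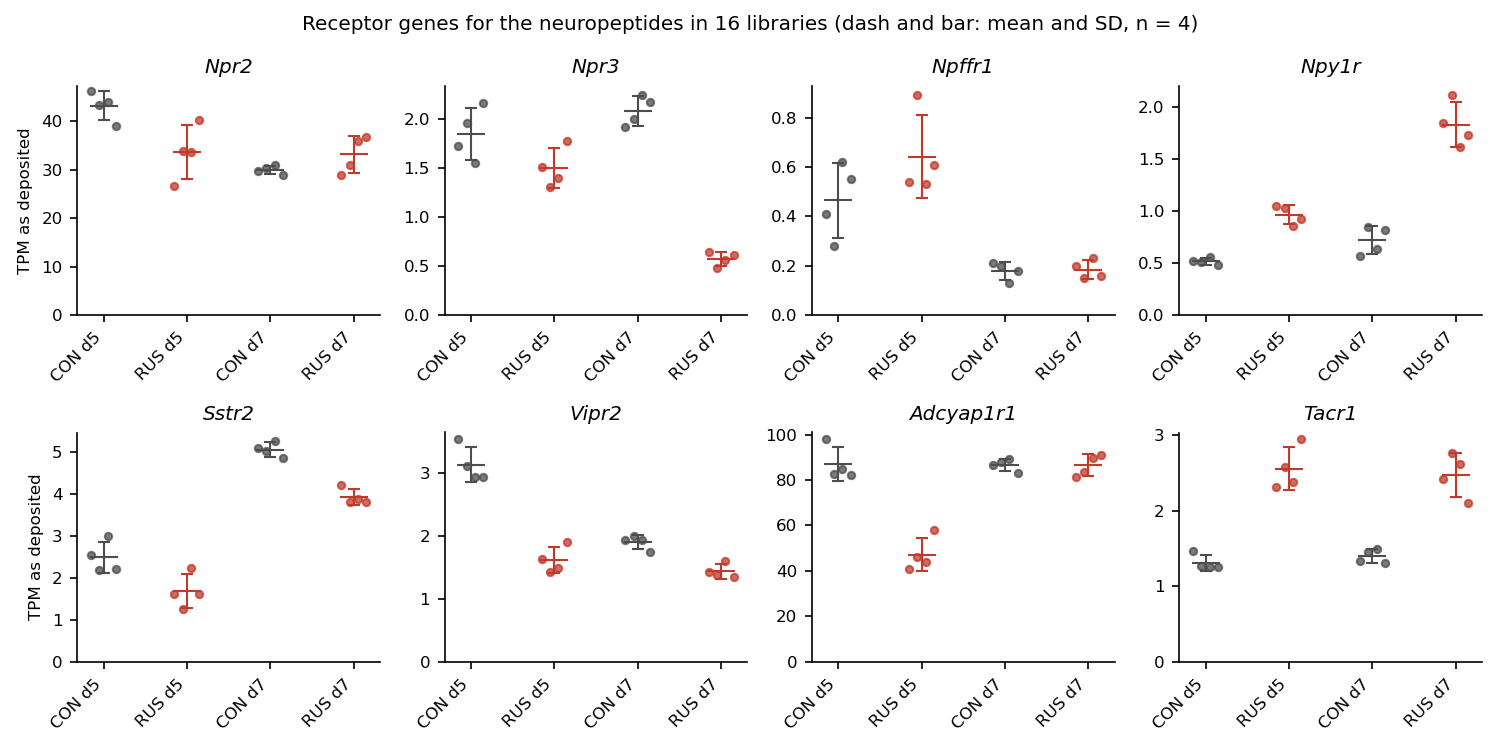
TPM as deposited of 8 receptor genes in the libraries of the 4 groups (linear axes, one scale per gene), with mean and SD of 4 libraries. *Npr3* is low only in shRNA RUS on day 7, *Adcyap1r1* only in shRNA RUS on day 5, and *Npy1r* and *Tacr1* are higher in shRNA RUS on both days.

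*Npy1r* and *Tacr1*, the receptors for neuropeptide Y and substance P, rose on both days. *Npy6r*, a further receptor of the neuropeptide Y family that was named after its values were seen, was at 0.73, 0.82, 1.03 and 0.93 TPM in shRNA CON and at 0.45, 0.31, 0.35 and 0.22 TPM in shRNA RUS on day 7. It fell there (-1.19, SE 0.22, limma adjusted p = 0.0013), against 0.03 (SE 0.26, adjusted p = 0.951) on day 5. *Npy1r* was at 0.57, 0.85, 0.64 and 0.82 TPM in shRNA CON and at 1.85, 2.12, 1.62 and 1.73 TPM in shRNA RUS on day 7. By limma the log2 difference of *Npy1r* was 0.92 on day 5 (SE 0.15, adjusted p = 0.0018) and 1.24 on day 7 (SE 0.16, adjusted p = 0.00017), while *Npy* itself had the opposite sign. *Tacr1* differed by 1.06 (SE 0.11, limma adjusted p = 0.00012) and 0.77 (SE 0.12, adjusted p = 0.00048). *Adcyap1r1*, which binds VIP more weakly than PACAP, was at 98.02, 82.74, 84.89 and 82.17 TPM in shRNA CON and at 41.03, 45.92, 43.97 and 57.86 TPM in shRNA RUS on day 5. It fell there (-0.73, SE 0.08, limma adjusted p = 0.00018) and was at 99.7% of control on day 7, and the effects differed (0.71, SE 0.09, adjusted p = 5.5e-05). *Vipr2*, another VIP receptor, fell on both days (-0.77, limma adjusted p = 0.00071, and -0.39, adjusted p = 0.0154), of which the second was lost with quantile normalization (-0.30, adjusted p = 0.0506), and was -0.26 with 1 added before the log2. Of the somatostatin receptors, *Sstr2* fell on day 7 (-0.36, SE 0.07, limma adjusted p = 0.0022). *Sstr1* was at 0.45, 0.38, 0.3 and 0.53 TPM in shRNA CON and at 0.67, 0.69, 0.6 and 0.81 TPM in shRNA RUS on day 5. It rose there (0.77, SE 0.19, limma adjusted p = 0.0144), against -0.36 (SE 0.25, adjusted p = 0.278) on day 7, and these effects differed (-1.14, SE 0.29, adjusted p = 0.0079). *Oprd1*, an opioid receptor with a mean of 0.10 TPM on day 7, passed the filter there only through shRNA RUS. Its scaled means were 0.04 TPM in shRNA CON and 0.16 TPM in shRNA RUS, given as a description. Of the 26 receptors paired with the 10 genes, 14 passed the filter on day 5, with 3 called higher (21.4%) and 2 lower (14.3%), beside 14.8% and 17.9% of all genes. On day 7, 18 passed, with 3 higher and 3 lower (16.7% each), beside 23.4% and 25.8% of all genes. The 3 higher include *Oprd1*, which passed only through the group where it was high. With the 3 further receptors of the list, *Npy6r* among them, 4 of 20 were lower on day 7.

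Genes that make, store and break down peptides were also counted by list. Of 18 processing enzymes, 17 were measured, with 6 called higher (35.3%) and 1 lower (5.88%) on day 5, beside 14.8% and 17.9% of all genes, and 8 higher (47.1%) and 4 lower (23.5%) on day 7, beside 23.4% and 25.8%. *Cpe*, the carboxypeptidase that trims precursors, rose on day 5 by 0.43 (SE 0.05, adjusted p = 0.00034 by limma) and on day 7 by 0.42 (SE 0.03, adjusted p = 4.8e-06). *Pam*, which amidates peptides, rose by 0.50 and 0.64, and the protease *Ctsl* by 0.61 and 0.59. The convertase *Pcsk6* fell on both days (-0.80, SE 0.08, limma adjusted p = 8.7e-05, and -1.02, SE 0.07, adjusted p = 2.8e-06). *Pcsk2*, the main convertase of neurons, differed by -0.21 (adjusted p = 0.34) on day 5 and fell on day 7 (-0.88, SE 0.14, adjusted p = 0.00054). *Cpe* was the most abundant of these, with a mean of 2119 TPM over the libraries of day 7.

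Of 23 granule genes, 4 were higher (17.4%) and 6 lower (26.1%) on day 5, and 9 higher (39.1%) and 5 lower (21.7%) on day 7, or 3 lower without library 1 of shRNA CON. Over all genes these shares were 14.8% and 17.9% on day 5 and 23.4% and 25.8% on day 7. *Syt11* rose on both days (0.51 and 0.76), *Snap25*, of the release machinery, rose on day 7 (0.61, limma adjusted p = 0.00031), and *Ptprn*, a membrane protein of the granules, fell on day 5 (-0.67, SE 0.07, adjusted p = 0.00017). Of 17 peptidases, 13 were measured on day 5 with 3 higher (23.1%) and 5 lower (38.5%), and 15 on day 7 with 5 higher (33.3%) and 6 lower (40%), beside the same shares of all genes. *Dpp7* rose on both days (0.85 and 1.43), *Ece1* fell on day 5 (-1.19, SE 0.16, limma adjusted p = 0.00067), and *Ace* fell on day 7 (-0.87, SE 0.16, adjusted p = 0.0016).

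Among 50 other precursor genes, 33 were measured on day 5 with 2 higher (6.06%) and 4 lower (12.1%), beside 14.8% and 17.9% of all genes, and 28 on day 7 with 4 higher (14.3%) and 6 lower (21.4%), beside 23.4% and 25.8%. All 4 shares lay below those of all genes, but several of these precursors were close to the filter of 0.1 TPM, where calls are hard to reach. On day 5, *Calcb* had a mean of 0.116 TPM (SE of the log2 difference 0.46) and *Nts* one of 0.125 TPM (SE 0.42). *Nmb*, the precursor of neuromedin B, was above all 10 genes described here, with a mean of 38.9 TPM on day 5. It rose on day 5 (1.04, SE 0.11, limma adjusted p = 0.00017) and fell on day 7 (-0.32, SE 0.09, adjusted p = 0.0145). *Adm*, which encodes adrenomedullin, fell on day 5 (-0.48, adjusted p = 0.0019) and rose on day 7 (0.71, adjusted p = 0.0022). *Calca*, the precursor of calcitonin and CGRP, differed by 0.17 (adjusted p = 0.205) on day 5 and fell on day 7 (-1.67, SE 0.22, adjusted p = 0.00015), as did *Pomc* (-0.78, SE 0.13, adjusted p = 0.00082).

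The 27 listed genes of the cAMP pathway mix activators, inhibitors and target genes, so their counts give no direction of the pathway. On day 7, 19 were higher (70.4%) and 3 lower (11.1%), beside 23.4% and 25.8% of all genes. Their median was 0.41, beside -0.03 over all genes. *Fos*, an early response gene with a CRE, was among the higher ones (1.27, SE 0.10, limma adjusted p = 5.9e-06). The part of cAMP signalling in the results of *Sst* and the other members was not tested. On day 5, 9 were higher (33.3%) and 2 lower (7.41%), beside 14.8% and 17.9% of all genes, but with TPM as deposited 1 was higher and 5 lower, so the direction on day 5 depended on the scaling. Of 18 cGMP pathway genes, 17 were measured, with 1 higher (5.88%) and 3 lower (17.6%) on day 5 and 4 higher (23.5%) and 3 lower (17.6%) on day 7, beside 14.8%, 17.9%, 23.4% and 25.8% of all genes. The counts of day 5 moved with the scaling in other lists too: with TPM as deposited, granule genes had 1 higher and 9 lower, peptidases 1 and 8, and receptors 3 and 5. They also moved with single libraries. Without library 2 of shRNA CON 4 cAMP genes were higher, without library 4 of shRNA RUS 5 were lower, and without any 1 library of shRNA CON or library 2 or 3 of shRNA RUS 1 was lower. Granule genes had 2 higher without library 3 or 4 of shRNA CON or library 2 or 3 of shRNA RUS, and 3 lower without library 3 of shRNA CON. Other precursors had 1 higher without library 1 or 3 of shRNA CON or library 1, 2 or 3 of shRNA RUS, and processing enzymes had 2 lower without library 4 of shRNA RUS.

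Markers of cell types that the cultures could hold were counted beside these results, and their counts stand beside the same shares of all genes, 14.8% called higher and 17.9% lower on day 5 and 23.4% and 25.8% on day 7. The 8 ependymal and choroid markers summed to 256 to 313 TPM in shRNA CON and 209.9 to 257 TPM in shRNA RUS on day 5, and to 663 to 798 TPM and 375 to 469 TPM on day 7. Of the 7 tested, 2 were higher (28.6%) and 3 lower (42.9%) on day 5, and 6 were lower (85.7%) and 0 higher on day 7. Their sum, like *Npvf*, was highest in shRNA CON on day 7, and so were the sums of the microglia and oligodendrocyte markers. In the list *Foxj1*, the regulator of motile cilia, was at 302.72 to 409.43 TPM in shRNA CON and 202.5 to 274.37 TPM in shRNA RUS on day 7, while *Ttr*, the defining gene of the choroid plexus, did not exceed 0.7 TPM and *Kl* was near 0. *Folr1*, also of the choroid plexus and named after its values were seen, was at 18.8 to 23.4 TPM in shRNA CON and 11.1 to 13.3 TPM in shRNA RUS on day 7, where it fell (-0.81, SE 0.08, limma adjusted p = 2.6e-05). The part of these cells in the result of *Npvf* was not tested.

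The 9 microglia markers summed to 82.3 to 89.8 TPM in shRNA CON and 69.4 to 84.97 TPM in shRNA RUS on day 5, with 1 higher and 3 lower, and to 232 to 246 TPM and 105 to 131 TPM on day 7, with 9 of 9 lower. The knockdown effect was more negative on day 7 than on day 5 in 8 of these 9 and in 6 of the 7 ependymal and choroid markers, by limma. The 16 GABAergic markers, of the interneurons in which *Npy*, *Sst* and *Vip* are best known, summed to 465 to 514 TPM in shRNA CON and 583.5 to 657 TPM in shRNA RUS on day 7, with 8 higher (50%) and 1 lower (6.25%), *Calb2* (-0.13, limma adjusted p = 0.0497), and 7 not called. On day 5 they summed to 331 to 408 TPM and 331 to 355 TPM, with 1 higher (6.25%) and 5 lower (31.2%). The 15 neuron markers summed to 950.3 to 1049 TPM and 998 to 1135 TPM on day 7, with 8 higher (53.3%) and 4 lower (26.7%). The 10 glutamatergic markers stayed low, at 6.51 to 13.1 TPM in sum on day 5 and 18.3 to 25.3 TPM on day 7, and *Slc17a6*, *Neurod2* and *Neurod6* among them had means under 0.1 TPM over the 16 libraries. Of the 10 hypothalamic markers, 8 had a mean under 0.1 TPM over the 16 libraries, of which *Rax* (0.14 TPM) and *Isl1* (0.13 TPM) were above it in shRNA CON on day 7, and *Nkx2-1* and *Six3*, which are also expressed in the embryonic forebrain outside the hypothalamus, made up the sum of 19.8 to 30.3 TPM over the libraries of day 7.

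Of the 10 oligodendrocyte markers, 7 fell (70%) and 1 rose (10%) on day 7, beside 25.8% and 23.4% of all genes, when *Npy*, *Sst* and *Pdyn* fell, with a median log2 difference of -0.60. They summed to 519.5 to 576 TPM in shRNA CON and 462 to 496 TPM in shRNA RUS on that day. On day 5, 4 were lower (40%) and 1 higher (10%), beside 17.9% and 14.8%, with a median of -0.62, while the sum was 362 to 447 TPM in shRNA CON and 402 to 496 TPM in shRNA RUS. The 9 astrocyte markers had 5 higher (55.6%) and 1 lower (11.1%) on day 7, with sums of 3243 to 3322 TPM and 4193 to 4403 TPM, and 4 higher (44.4%) and 1 lower (11.1%) on day 5, with sums of 5060 to 5537 TPM and 6031 to 6649 TPM. The 9 radial glia markers were split, with 3 higher (33.3%) and 2 lower (22.2%) on day 5 and 3 higher (33.3%) and 4 lower (44.4%) on day 7, and their sums were 12854 to 14114 TPM and 16583 to 18058 TPM on day 5 and 7404 to 7846 TPM and 7850 to 8584 TPM on day 7. Of the 11 vascular and fibroblast markers, 8 were measured, with 1 higher and 1 lower (12.5% each) on day 5 and 4 higher (50%) and 0 lower on day 7. They summed to 344 to 360 TPM in shRNA CON and 263 to 278 TPM in shRNA RUS on day 5. On day 7 the sums went the other way, with 221 to 244 TPM and 257 to 331 TPM. *Cdh5*, *Cldn5* and *Lum* had means under 0.1 TPM in every group. The part of these cells in the results of *Npy*, *Sst*, *Pdyn* and *Nppc* was not tested. The stem cell marker *Nes* was at 53.4 to 58.8 TPM in shRNA CON and 24.8 to 32.2 TPM in shRNA RUS on day 5 and at 104 to 118 TPM and 43.2 to 54.0 TPM on day 7. It fell on both days (-0.87, SE 0.07, limma adjusted p = 3.5e-05, and -1.19, SE 0.07, adjusted p = 1.7e-06). *Nes* is of the radial glia list and was not among its genes with the highest levels. On day 5 *Hes5* of that list was also called lower (-0.67), while *Vim* (0.55), *Fabp7* (0.52) and *Pax6* (0.25) were called higher. The part of *Nes* in the results of *Npy*, *Sst* and *Pdyn* was not tested. *Sox2* was at 126.5 to 184.22 TPM over the 16 libraries, so markers of the labelled cell type were present, next to *Gfap* of astroglia (634.61 to 2499.1 TPM) and neuronal *Tubb3* (106.64 to 278.72 TPM).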

How the data were processed

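The labels put the NSC libraries into 4 groups of 4, by shRNA and day. The authors made them from polyA RNA, ran them on an Illumina NextSeq, and aligned reads with STAR (mm10) and quantified with RSEM (GRCm38.99 transcripts); versions of these tools are not given in the sources used here. For each day, the authors deposited TPM of every library beside the output of DESeq2. Of the latter only the mean of normalized counts over the 8 libraries, a signal printed as theirs, was taken, while the authors' log2 fold change, its error, the statistic (a score) and the p-value columns stayed unused. TPM holds no counts, the depth is unknown, and no interval that needs it is given.

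Each TPM was divided by a factor of its library, the median ratio to a geometric mean over genes at 1 TPM or more in every library (0.845 to 1.11). The scale of the test was log2(scaled TPM + 0.1), for genes averaging 0.1 TPM or more, with limma 3.58.1 in R 4.3.3 (lmFit, eBayes with trend, two-sided), Benjamini-Hochberg adjustment over all genes and a threshold of 0.05. Each day was fitted alone for the knockdown, and 16 libraries together for the day effects and for the change of the knockdown effect between days. Lines were joined between the days by symbol and position, which kept 55365 and left out 106. Python 3.11.15 was used with scipy 1.17.1, pandas 2.3.3, numpy 2.4.6 and matplotlib 3.10.9.

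The members and lists were chosen with earlier results of these data known. The genes named were the members, *Gm20754*, paired receptors, genes most like a member (up to 3 each, some of which are not reported here), markers with high levels, and up to 4 genes per list and day with the largest called differences at 1 TPM or more, of which a shorter choice, made with the values known, is printed. Alternatives were the value added, the filter, the scaling, the trend, a replicate block and leaving out each library. Further markers and receptors, among them *Nes*, *Npy6r* and *Folr1*, were named outside these rules. For likeness, the other scalings and added values were chosen after seeing the data. Positions are from GENCODE vM21, another release than the authors'.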

Additional observations from a re-analysis of the deposited data

Results flagged for a closer look

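In 232 sets of 4 libraries of 1 gene and group, 9 held a library that stood apart by Dixon's test, which chance alone gives in about 1 of 20 sets. Among the neuropeptide genes these were *Penk* at 1.68 TPM in shRNA RUS on day 5, *Cck* at 0.63 TPM and *Vip* at 0.03 TPM in shRNA CON on day 7, and *Crh* at 0.03 TPM in shRNA CON on day 5. Without that library the *Penk* call of day 5 was kept, with a log2 difference of 0.63 (limma adjusted p = 0.0412). Among other genes they were *Tacr1* at 1.47 TPM and *Fos* at 60.5 TPM in shRNA CON on day 5, *Pcsk2* at 1.69 TPM in shRNA CON on day 7, *Bad* at 84.2 TPM in shRNA RUS on day 5 and *Ftl1* at 1363 TPM in shRNA RUS on day 7.

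The knockdown effect differed between day 7 and day 5 by the limma test of the difference itself in 29.8% of all genes. It did so in 14 of the 29 tested genes that were members or were named from the lists. The lists were those of receptors, enzymes, granule genes, peptidases, precursors and cAMP pathway genes. Most of the 29 were named for large differences on 1 of the days. *Pdyn* had a more negative effect on day 7, by -1.17 on the log2 scale, and so had *Npr3* (-1.57), *Pcsk2* (-0.68), *Nmb* (-1.37) and *Calca* (-1.85). The effect was more positive on day 7 in *Adcyap1r1* (0.71), *Ptprn* (0.95), *Syt11* (0.24), *Snap25* (0.65), *Dpp7* (0.56), *Adm* (1.18), *Fos* (0.89), *Ece1* (0.85) and *Npr2* (0.34). The last 2 were close to the threshold. *Npr2* lost its call under 16 of 25 alternatives (adjusted p up to 0.101), among them every omission of 1 library except CON library 4 and RUS library 4 of day 5 and RUS libraries 1 and 2 of day 7. *Ece1* lost its call under 7 of 25 (adjusted p up to 0.0707), among them the omission of CON library 4 or RUS library 1 or 3 of day 5, or CON library 4 or RUS library 3 or 4 of day 7.

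Of the 22 tested markers, receptors and genes alike to members that are named besides, 12 differed as well, all with a more negative effect on day 7. These were *Npy6r* (-1.22), *Sstr1* (-1.14), *Folr1* (-0.97), *Foxj1* (-0.55), *Nes* (-0.33), *Gfap* (-0.26), *Rnf32* (-0.82), *Ropn1l* (-1.10), *Ube2c* (-0.54), *Ftl1* (-0.36), *H2az1* (-0.55) and *Bad* (-0.61). The alike genes were picked over the same libraries. *Npy6r* and *Folr1* were named after their values were seen, and *Nes* was named outside the rules. The count and its direction are thus partly set by the choice.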

How the results depend on the processing

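The counts of called genes stayed within 1.5 times in each of the 5 comparisons under each alternative, and the calls of *Npy*, *Sst* and *Pdyn* on day 7 were kept in all that tested them; *Sst* and *Pdyn* were under the filter at 1 TPM. Scaling set the split of calls: with TPM as deposited, 22.7% of the calls on day 5 were higher in shRNA RUS (33.2% with the 75th percentile) against 45.4%, and 71.4%, 76.9% and 73.5% were higher in the day effect of shRNA CON, of shRNA RUS and in the difference against 55.5%, 57.5% and 51.1%. The median over all genes then moved to -0.21, 0.20, 0.41 and 0.19.

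*Npvf* and *Nppc*, given without a test, kept their sign under every alternative. On day 5 *Npvf* ranged from -0.54 to -0.22 and *Nppc* from -2.10 to -1.59, on day 7 from -3.96 to -3.23 and from -2.74 to -1.81. Between the days they ranged from 2.27 to 2.70 and from -0.93 to -0.63 in shRNA CON, and from -1.23 to -0.63 and from -1.68 to -0.86 in shRNA RUS.

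A few uncalled values near 0 changed sign and stayed uncalled. With quantile normalization, *Cck* on day 5 was at 0.088, and *Npy* and *Penk* in the day effect of shRNA CON at -0.047 and -0.23. With TPM as deposited, *Pdyn* in the day effect of shRNA RUS was at 0.062. Leaving out 1 library gave -0.47 to 0.24 for *Cck* on day 5, -0.012 to 0.152 for *Npy* and -0.15 to 0.20 for *Penk* in shRNA CON, and -0.321 to 0.0094 for *Pdyn* in shRNA RUS.

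Same-numbered libraries deviated together little or not at all (r from -0.25 to -0.02 on day 5 and 0.02 to 0.10 on day 7). These values over all genes cannot exclude a pairing, and the labels do not state one. With the replicate number as a block, 4966 genes were called on day 5 in place of 7383, 11225 in place of 12108 on day 7 and 5208 in place of 7090 in the difference. *Penk* on day 5 (0.73, adjusted p = 0.0638) and *Pdyn* in the difference (-1.17, adjusted p = 0.0564) then missed the threshold. The unknown depth limits what can be said of genes under 1 TPM, which held 6 of the 10.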
